A study of Mus musculus with 16 samples.

Results

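Homozygous Cecr2 gene trap embryos of the mouse strain BALB/cCrl were compared with homozygous Cecr2 gene trap embryos of the strain FVB/N, and each difference was read beside the same strain difference in wild type embryos. The comparison was confined to probe sets without a called or large strain difference between the wild types. A probe set was kept, and is called matched below, when the wild type strain difference had an adjusted p of 0.05 or more and its 95% confidence interval lay inside 1.5-fold in either direction. This rule kept 41017 of 45037 probe sets, which carried 17284 of 18193 named genes. It removed 3036 probe sets (6.74%) with an adjusted p under 0.05 between the wild types, and 984 more whose interval was too wide.

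Total RNA of whole embryos, 1 female embryo per Affymetrix mouse expression array, was measured in 4 groups of 4 embryos. The mutant groups were Cecr2Gt45Bic/Cecr2Gt45Bic embryos on BALB/cCrl and on FVB/N, and the other groups were wild type embryos of these strains. All embryos had 11 to 14 somites, a stage before the cranial neural tube closes, and had been freed of extraembryonic membranes. Per the labels' protocols the allele had been crossed into each strain for more than 10 generations, so each mutant group is 1 congenic line. BALB/cCrl mutants came from heterozygous parents and FVB/N mutants from homozygous parents, so the genotype of the dam and the strain of the mutants cannot be told apart. The labels name neither the litter nor the exact somite number of an embryo.

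The neural tube forms when the neural plate bends, its folds rise and their edges meet, and failure of this step in the head gives exencephaly, an open brain. Cecr2 is a bromodomain protein that works with ISWI ATPases in chromatin remodelling complexes. Loss of Cecr2 is known to cause exencephaly in a way that depends on the strain: BALB/c embryos are prone to the defect and FVB/N embryos are resistant.

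The 16 arrays were alike in distribution, with medians between 6.35 and 6.42 on the log2 scale and within-group correlations of 0.99457 to 0.99786. The first principal component, with 39.3% of the variance, separated the strains. On the second, with 9.39%, FVB/N mutants 3 and 4 lay at -24.0 and -24.7, below the other 14 arrays, which lay between -9.65 and 13.9. Counts are therefore also given without these 2 arrays. In gcRMA tables that the authors normalised separately for each strain, the 3' minus 5' difference of the Gapdh control probe sets was 0.0058 to 0.0278 (log2) in BALB/cCrl mutants and -0.0422 to 0.0208 in FVB/N mutants. That of Actb was 0.52 to 0.64 and 0.56 to 0.68.

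The table that the authors deposited for this pair of mutant groups did not hold this pair. With its sign turned, its log2 folds equalled the BALB/cCrl mutant minus FVB/N wild type difference of the 16-array values within 0.01 at 45037 of 45037 probe sets, and the difference between the mutant groups at 3332. Cdk5rap1, for example, had a log2 difference of 0.21 in that authors' deposited table against 3.63 between the mutant groups. The authors' deposited table of all 4 groups matched the mutant difference at 45037 of 45037 probe sets. The pair's table was not used further.

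Cecr2 itself was low in both mutant groups. Its matched probe set read 6.04, 5.92, 5.90 and 5.92 (log2) in BALB/cCrl mutants and 6.15, 6.37, 6.15 and 6.29 in FVB/N mutants, against wild type means of 8.31 ± 0.24 (SD, n = 4) in BALB/cCrl and 8.24 ± 0.18 in FVB/N. The mutant groups did not overlap, yet their difference of -0.29 did not pass the test (limma, adjusted p = 0.0926). The other probe set is not matched. Its mutant groups overlapped and differed by 0.27 (adjusted p = 0.5842). The gene lies on chr6:120666314-120771191 (GRCm38.p6).

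Between the mutant groups 4861 of all 45037 probe sets (10.8%) had an adjusted p under 0.05 in limma, 2201 higher (4.89%) and 2660 lower (5.91%) in BALB/cCrl. Among the matched probe sets 2644 of 41017 were called, which is 6.45%, with 1205 higher (2.94%) and 1439 lower (3.51%) in BALB/cCrl. They named 1909 genes. The mutant groups did not overlap at 3764 matched probe sets (9.18%, against 13.2% of all probe sets). Of the probe sets called between the wild types, 67.5% were also called between the mutants, 2042 of 2048 in the same direction. The count of called matched probe sets fell to 1570 without BALB/cCrl mutant 1, to 1580 without BALB/cCrl mutant 3 and to 1269 when each pair of groups was fitted alone. It was 2260 without FVB/N mutants 3 and 4. The share that was higher in BALB/cCrl was 45.6%, and which direction held more calls depended on the setting. The share was 34.2% when each array was centred on its median and 38.1% without FVB/N mutants 3 and 4. It was 52.9% in the fit of each pair, 51.7% without BALB/cCrl mutant 4, 51.0% without FVB/N mutant 1 and 50.3% when the wild type rule used the unadjusted p.

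The differences were small. Matched probe sets called higher had a median difference of 0.36 (log2) in the mutants and 0.08 in the wild types, and those called lower had -0.26 and -0.10. The 1.5-fold limit of the rule, 0.58 (log2), is wider than these medians. A matched probe set can therefore carry part of its mutant difference in the wild types as well. The strain difference itself was called unlike in mutants and wild types at only 6 matched probe sets. The larger differences ran mostly one way: of 180 called matched probe sets at 1.5-fold or more (0.439% of the matched, against 2.52% of all probe sets), BALB/cCrl mutants were higher at 158 and lower at 22. Without 1 array, the higher count ranged from 120 (without FVB/N mutant 4) to 280 (without BALB/cCrl mutant 4), and the lower count from 17 to 54 (without BALB/cCrl mutant 2). Without FVB/N mutants 3 and 4 they were 129 and 45.

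**Figure D1:**
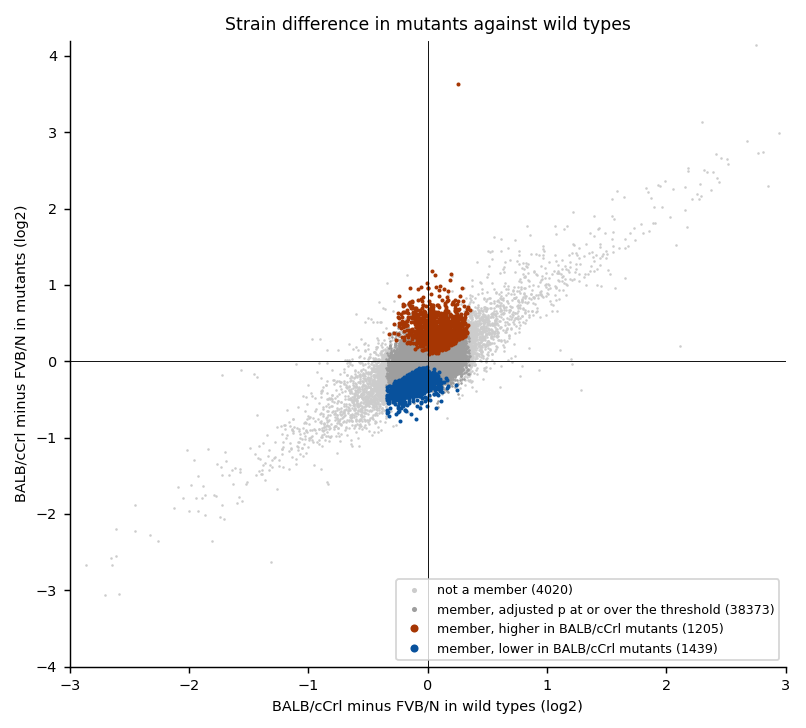
Each point is a probe set, with the BALB/cCrl minus FVB/N difference in wild types on the x axis and in mutants on the y axis (both log2); members are the matched probe sets. The 1205 matched probe sets called higher and the 1439 called lower form bands above and below 0, and Cdk5rap1 stands alone at 3.63; 27 probe sets lie outside the drawn range.

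The called probe sets differed from the rest in level and in gene span. Those called higher had a median level of 8.05 and those called lower 9.32, against 6.24 for all matched probe sets (log2). Their genes differed in genomic span: the median was 39.02 kb for those higher, 53.4 kb for those higher by 1.5-fold or more, and 21.5 kb for those lower, against 26.9 kb for all matched probe sets. The call and the rule selected on the group means, so the values by array are given as a description. Averaged over the 1205 probe sets called higher, the deviation from the 16-array mean ran from 0.12 to 0.25 in BALB/cCrl mutants and from -0.27 to -0.17 in FVB/N mutants. Wild type arrays lay between, from -0.11 to 0.12. For the 158 probe sets at 1.5-fold or more this separation did not hold: BALB/cCrl wild type 3 lay at 0.32, above BALB/cCrl mutant 4 at 0.12.

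**Figure D2:**
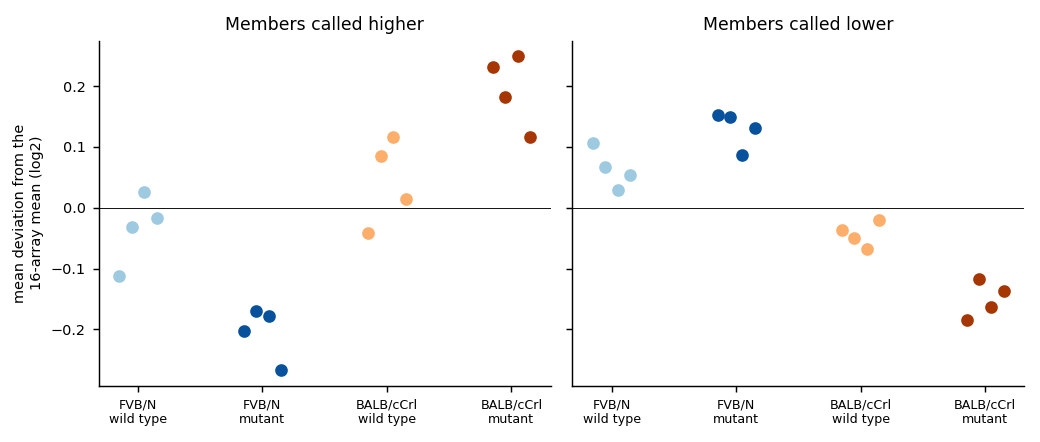
Mean deviation from the 16-array mean (log2) of the matched probe sets called higher (left) and lower (right), 1 point per embryo. The mutant arrays lie at the ends in the left panel; in the right panel FVB/N mutant 3 (0.09) lies below FVB/N wild type 1 (0.11). The mutant values are those that the call selected.

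Cdk5rap1, which encodes a methylthiotransferase that modifies mitochondrial transfer RNA, had the largest difference among the matched probe sets. It read 7.95, 8.12, 7.91 and 8.08 in BALB/cCrl mutants and 4.47, 4.47, 4.06 and 4.56 in FVB/N mutants. The wild types, at 8.06 ± 0.14 in BALB/cCrl and 7.81 ± 0.07 in FVB/N, stood with the BALB/cCrl mutants, so that the FVB/N mutants were the low group. BALB/cCrl mutants were at least 12.4-fold higher (limma, adjusted p = 2.94e-15), a lower bound because the FVB/N mutant values lay within the 3.03 to 4.88 that 10 Y-linked probe sets gave in these female embryos. The gene has 1 probe set on the array.

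Ndrg1, a gene induced by hypoxia and other cell stress, had the third largest difference. Its probe set with the largest difference read 7.51, 7.25, 7.60 and 7.04 in BALB/cCrl mutants and 6.18, 6.30, 6.10 and 6.22 in FVB/N mutants. The mutant groups did not overlap, and the wild type means, 6.90 ± 0.32 in BALB/cCrl and 6.70 ± 0.05 in FVB/N, lay between theirs. The difference was 1.15 ± 0.13 (SE, adjusted p = 4.32e-06), and all 5 probe sets of Ndrg1 were called higher, at 0.39 to 1.15. The smallest of these lost its call without BALB/cCrl mutant 1 or 3, without FVB/N mutant 1, and in the fit of each pair.

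Erdr1, a gene of the pseudoautosomal region, was 1.18 higher in BALB/cCrl mutants (adjusted p = 7.54e-05). BALB/cCrl mutants read 14.18, 14.11, 14.05 and 14.02 and FVB/N mutants 13.10, 12.96, 12.65 and 12.92, without overlap. Its probe set name ends in x_at, which marks probes that can bind other transcripts, so the source of this signal is uncertain.

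The other genes with the largest positive differences included regulators whose probe sets disagreed. Gsk3b, the kinase of the beta-catenin destruction complex, read 10.10, 9.81, 10.23 and 9.92 in BALB/cCrl mutants and 8.84, 9.16, 9.08 and 8.44 in FVB/N mutants on the probe set with the largest difference. The groups did not overlap and differed by 1.14 ± 0.19 (adjusted p = 4.92e-04). A second probe set was called at 0.62, and the other 4 lay between -0.11 and -0.04 without a call. Crebbp, a histone acetyltransferase whose loss in mice can cause exencephaly, was called at 0.98 and 0.59 on 2 of 4 probe sets, with -0.05 and -0.01 on the others. The Crebbp probe set at 0.59 read 4.26 to 5.20 in BALB/cCrl mutants and 3.82 to 4.32 in FVB/N mutants, with overlap. Most of these values lay within the 3.03 to 4.88 of the Y-linked probe sets. Csnk2a1, a catalytic subunit of casein kinase 2, was called at 0.94 on 1 of 6, with -0.10 to 0.24 on the others, and Eif4ebp2, a repressor of translation, at 0.97 on 1 of 5, with -0.01 to 0.41 on the others. Nr2c2, an orphan nuclear receptor gene on chromosome 6, was called on 2 of 6, at 0.96 on a matched probe set and at 1.44 on one that is not matched.

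Pdap1, whose product binds platelet-derived growth factor A, was called on 2 of 2 probe sets (0.97 and 0.25) and Ece1, the endothelin-converting enzyme, on 2 of 3. Ece1 read 10.13, 9.93, 10.29 and 9.99 in BALB/cCrl mutants and 9.19, 9.02, 9.18 and 9.18 in FVB/N mutants, a difference of 0.95 ± 0.11 (adjusted p = 5.71e-06) with no overlap. Fam102b (0.97, on 1 of 2 probe sets) and the intramembrane protease gene Sppl2a (0.92, on 1 of 3) completed the 12 genes with the largest positive differences. The other Sppl2a probe sets lay at -0.12 and 0.03 without a call. The calls of these 12 genes on their named probe sets held under each of the 24 alternatives run.

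Negative differences, with BALB/cCrl mutants the lower group, were smaller. Hibch, an enzyme of valine breakdown, read 4.61, 4.68, 4.80 and 4.67 in BALB/cCrl mutants and 5.68, 5.10, 5.45 and 5.64 in FVB/N mutants. These groups did not overlap, and the difference was -0.78 ± 0.13 (adjusted p = 2.95e-04). Its size is a lower bound, because the BALB/cCrl mutant values lay within the 3.03 to 4.88 of the Y-linked probe sets. The second Hibch probe set, which is not matched, was called at -0.52. Gtf2h5, a small subunit of the repair and transcription factor TFIIH, read 6.13, 6.25, 6.01 and 6.35 against 6.98, 6.81, 6.80 and 6.88, a difference of -0.68 with no overlap. Its other probe set, also not matched, was called at -0.24.

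Apela, the secreted peptide ligand of the apelin receptor, read 8.29, 8.79, 8.43 and 8.68 in BALB/cCrl mutants and 9.01, 9.12, 9.00 and 9.53 in FVB/N mutants. Every BALB/cCrl mutant lay below every FVB/N mutant, with a difference of -0.62 ± 0.12 (adjusted p = 0.0016), and the second probe set, which is not matched (-0.32 between wild types, adjusted p = 0.0401), was called at -0.41. The mutant means of this second probe set, 4.01 and 4.43, lay within the 3.03 to 4.88 of the Y-linked probe sets. The lipid phosphatase gene Mtmr6 (-0.61) and the ribosome export adaptor gene Nmd3 (-0.59) were called on 3 of 4 probe sets each. The call of the named Nmd3 probe set was lost without FVB/N mutant 3, without BALB/cCrl mutant 1, without FVB/N mutants 3 and 4, and in the fit of each pair. The remaining named genes with negative differences were Rab26os (-0.75), Klhl32 (-0.66), the sialic acid esterase gene Siae (-0.66) and 4632427E13Rik (-0.66). Another probe set of 4632427E13Rik, which is not matched, was 1.70 higher. The phosphatase regulator gene Ppp1r10 (-0.65), the SAGA complex gene Supt20 (-0.63) and 1700001O22Rik (-0.62) completed the list. Klhl32 was called on 1 of 3 probe sets, with 0.05 and 0.15 on the others. Siae was called on 2 of 4 and Supt20 on 2 of 7, with -0.09 to 0.21 on the uncalled Supt20 probe sets.

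**Figure D3:**
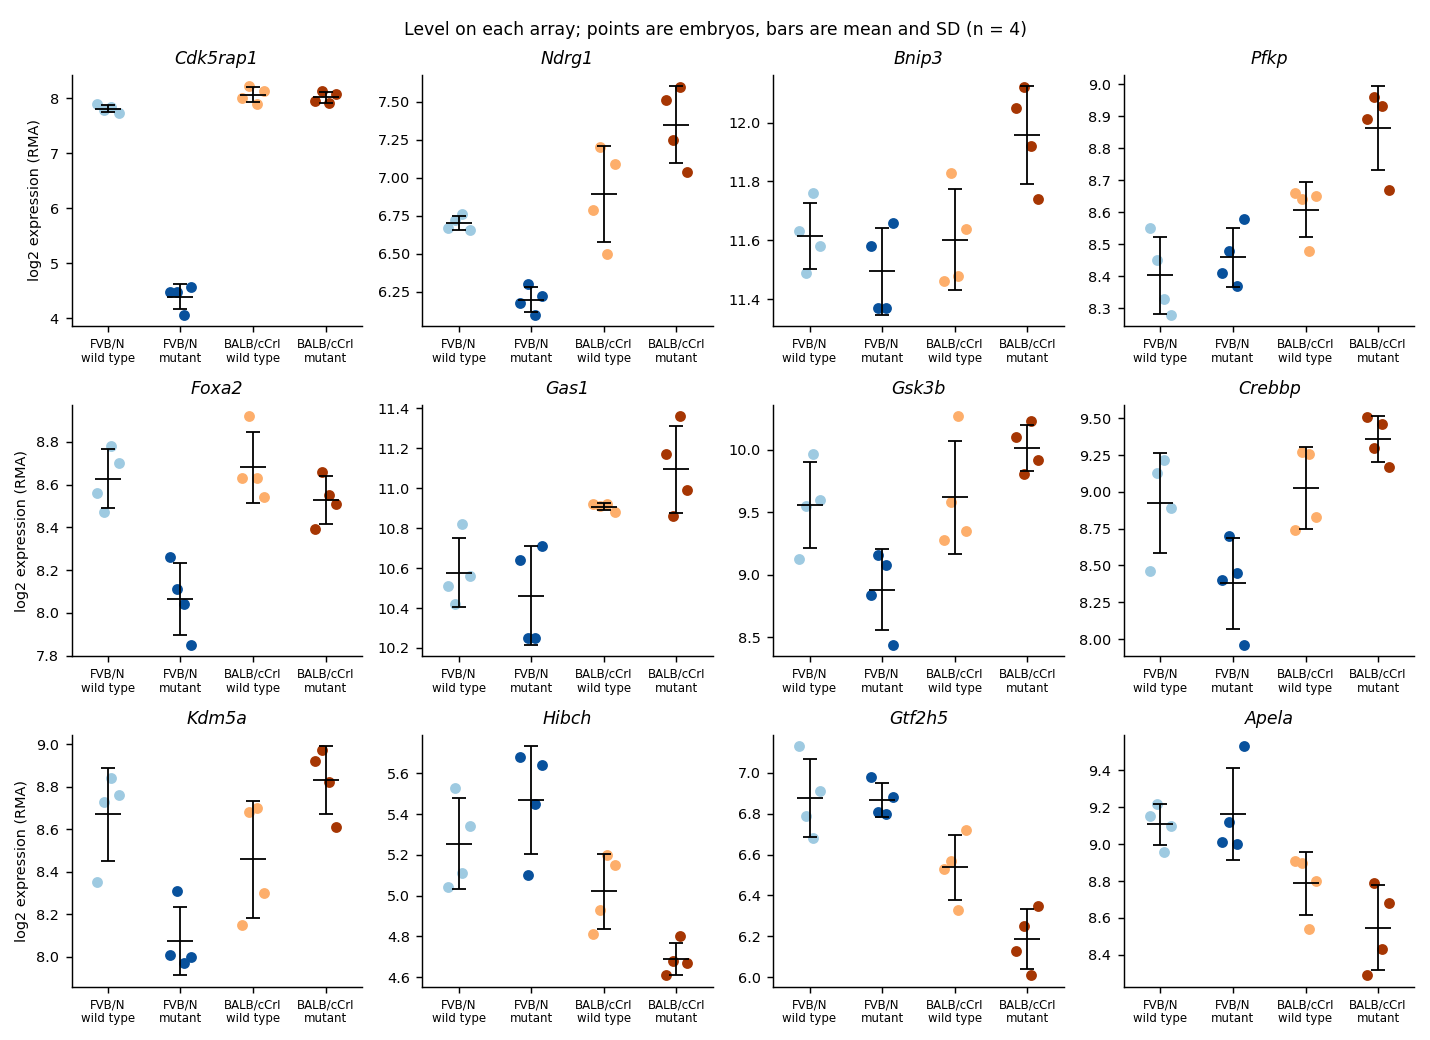
Level of 12 genes on each array (log2, y axes differ between panels and do not start at 0), with points for embryos and bars for the mean and SD of 4. Cdk5rap1 is low in FVB/N mutants alone; for Ndrg1, Bnip3, Pfkp, Crebbp and Kdm5a the BALB/cCrl mutants all lie above the FVB/N mutants; for Hibch, Gtf2h5 and Apela they all lie below.

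Few genes were called on all their probe sets. Of the 1909 genes, 443 have 1 probe set. Among the 1466 with several, 1006 had 1 called, 262 had more than 1 but not all called one way, 124 had all called one way and 74 had calls in both directions. Genes with at least 3 probe sets that were all matched and all called one way numbered 15, a set chosen after the values were seen. Repeating that count under the other fits, a check chosen after seeing the data, gave 5 without BALB/cCrl mutant 1 or 3, 8 without FVB/N mutant 1, and 9 without FVB/N wild type 3 or BALB/cCrl wild type 1. It was 4 in the fit of each pair, 4 without FVB/N mutants 3 and 4, and 6 without the intensity trend. Dag1 and Pknox1 were in the set under every fit run except that of each pair. The 7 higher in BALB/cCrl mutants were Ndrg1, Dag1 (dystroglycan, a laminin receptor), Igfbp4 (a binding protein of insulin-like growth factors), Chd4 (the ATPase of the NuRD complex), Pknox1 (a Hox cofactor), Nedd4 (a ubiquitin ligase) and Tpi1 (a glycolytic enzyme). The 8 lower were Apex1 (a DNA repair endonuclease), Crbn (a ubiquitin ligase receptor), Psmc6 (a proteasome ATPase), Sarnp, Pnrc2, Laptm4b, Dph3 and Trmt10a.

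Dag1 was higher by 0.18 to 0.61 on 4 probe sets, each without overlap. On the probe set with the largest difference it read 10.66, 10.24, 10.45 and 10.29 in BALB/cCrl mutants and 9.86, 9.68, 9.85 and 9.81 in FVB/N mutants, and the wild type means were 10.09 ± 0.15 in BALB/cCrl and 10.07 ± 0.15 in FVB/N (adjusted p = 1.09e-04). Chd4 was higher on 3 probe sets by 0.19, 0.41 and 0.82, and Pknox1 on 3 by 0.55 to 0.58, also without overlap. Igfbp4 was higher by 0.28 to 0.44 on 6 probe sets, and its mutant groups overlapped on all 6. BALB/cCrl mutant 2 was the lowest of its group on each of them, at 12.63 on the one with the smallest difference against 12.96 to 13.00 for the other BALB/cCrl mutants. Nedd4 was higher by 0.12 to 0.24 and Tpi1 by 0.14 to 0.20. The 8 genes that were lower had differences between -0.44 and -0.12 over all their probe sets.

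**Figure D4:**
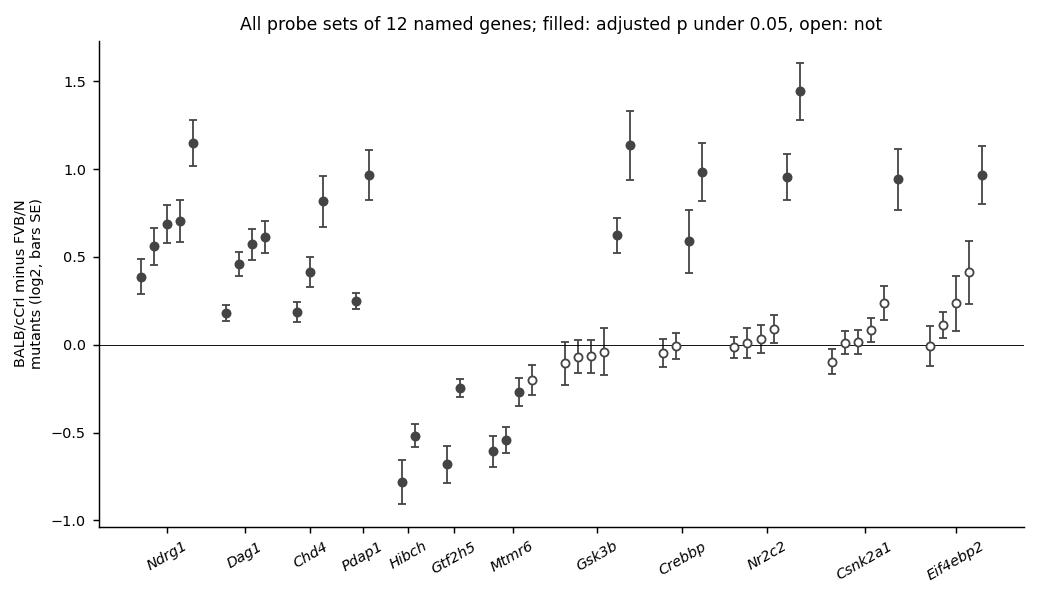
BALB/cCrl minus FVB/N difference in mutants (log2, bars SE) for every probe set of 12 named genes; filled points were called and open points were not. All probe sets of Ndrg1, Dag1, Chd4 and Pdap1 lie above 0 and are called, whereas Gsk3b, Crebbp, Nr2c2, Csnk2a1 and Eif4ebp2 combine 1 or 2 called probe sets with others that were not called, the highest of these at 0.41 in Eif4ebp2.

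The strain difference itself was unlike in mutants and wild types at 34 of all probe sets (0.0755%, interaction in limma, adjusted p under 0.05), of which 6 were matched (0.0146% of the matched). This test uses the wild type arrays that also chose the matched probe sets. The 6 probe sets belonged to Cdk5rap1, Eif3c, Rest, Kdm5a, Pde5a and Polr1a, and the last 5 are named here after their values were seen. Kdm5a, a demethylase of histone H3, lies 0.2 Mb from Cecr2 on chromosome 6. It read 8.92, 8.97, 8.82 and 8.61 in BALB/cCrl mutants and 8.01, 8.31, 7.97 and 8.0 in FVB/N mutants, without overlap. Its wild type means were 8.46 ± 0.27 in BALB/cCrl and 8.67 ± 0.22 in FVB/N, and the interaction was 0.97 (adjusted p = 0.0463). A second Kdm5a probe set was called at 0.46, and 4 others were not.

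Eif3c, a subunit of a translation initiation factor, had an interaction of 0.49 (limma, adjusted p = 0.0281), and Rest, the repressor of neuronal genes, of 0.80 (adjusted p = 0.0463). Pde5a, a cyclic GMP phosphodiesterase, had 0.55 and Polr1a, the large subunit of RNA polymerase I, 0.70, with the same adjusted p of 0.0463. For each of these 4 genes 1 probe set, of 3 to 5, was called between the mutants. The interaction of Cdk5rap1 (3.38) was called in 24 of 24 fits of the 4 groups, that of Eif3c in 14, Kdm5a in 10, Rest and Polr1a in 8 and Pde5a in 7. The count of 6 was 2 without FVB/N mutants 3 and 4, and between 1 and 65 when 1 array was left out. It was 1 without FVB/N wild type 4, BALB/cCrl mutant 1 or BALB/cCrl mutant 3, and 65 without BALB/cCrl wild type 3. It was 2 without FVB/N wild type 2 or 3, FVB/N mutant 1 or 4, or BALB/cCrl wild type 1 or 4, and 16 to 21 without FVB/N wild type 1, FVB/N mutant 2 or BALB/cCrl mutant 4.

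Gene lists were read through 1 probe set per gene, the one with the highest mean level. Over all 18193 genes 11.4% of these were called, 4.15% with a rise and 7.26% with a fall, and the median difference was -0.01. Against this, genes of the hypoxia response and glycolysis leaned higher. Of 21 measured, 8 were called higher and 0 lower, 38.1%, and all 21 were matched. Their median difference was 0.18 in mutants and 0.03 in wild types, and 20 of 21 lay above 0. These 8 were Ndrg1 (0.70 on this probe set), Bnip3 (0.46), Pfkp (0.40), Pdk1 (0.27), Egln1 (0.24), Pgam1 (0.18), Tpi1 (0.14) and Slc2a3 (0.14).

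Bnip3, a mitophagy receptor, read 12.05, 12.12, 11.92 and 11.74 in BALB/cCrl mutants and 11.58, 11.37, 11.37 and 11.66 in FVB/N mutants. Every BALB/cCrl mutant was above every FVB/N mutant, while the wild type strain difference was -0.01. Pfkp, a phosphofructokinase of glycolysis, read 8.89, 8.96, 8.93 and 8.67 against 8.41, 8.48, 8.37 and 8.58, again without overlap (adjusted p = 0.0015). Pgam1, phosphoglycerate mutase, read 13.66, 13.61, 13.63 and 13.60 against 13.45, 13.49, 13.46 and 13.37. That difference of 0.18 ± 0.03 came with a narrow spread and no overlap (adjusted p = 1.86e-04). Egln1, the prolyl hydroxylase that marks hypoxia-inducible factor for decay, read 10.43, 10.38, 10.35 and 10.26 against 10.23, 10.10, 10.17 and 9.98, without overlap.

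Pdk1, the kinase that holds pyruvate back from the mitochondria, was called on 3 probe sets, at 0.27, 0.29 and 0.74, with overlap of the mutant groups on the last. The glycolytic gene Tpi1 was called on 3 of 3, and its mutant groups overlapped on each. The mutant groups also overlapped for the glucose transporter gene Slc2a3. Other probe sets added calls for Vegfa (0.24), Slc2a1 (0.32), Pgk1 (0.10) and Aldoa (0.16), with overlap of the mutant groups for Slc2a1 and Aldoa. In all, 12 genes of this list had a called matched probe set, against 1909 of all 18193 genes, a count that grows with the number of probe sets. Members without a call included Hk2 (0.21), Car9 (0.20) and Ldha (0.05), and Egln3 was the 1 gene below 0, at -0.15.

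The count of 8 was 10 without FVB/N mutants 3 and 4. It was 5 without FVB/N wild type 2 or 4, without FVB/N mutant 2 and without BALB/cCrl mutant 3, and 4 without FVB/N mutant 3 or BALB/cCrl mutant 2. It was also 5 in the fit of each pair, and 4 without the intensity trend or with median centring. In none of these was a gene of the list called lower, and the median stayed between 0.14 and 0.19.

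Hypoxia-inducible factor can bind DNA at the letters ACGTG, so the promoters of the called genes were read for them. Other forms of its binding site were not searched for, so a window without ACGTG may still hold a site. RefSeq windows of 250 bases before to 50 after the start (GRCm38.p6, a C57BL/6J genome, neither study strain) were at hand for 19 of the 21 genes. ACGTG on either strand was in at least 1 window of 15 of these 19 genes. It was in 17 of the 25 windows of the 19 genes (68.0%), against 19.6% of all 32851 windows. The list was made of hypoxia response and glycolysis genes, so this share describes the list and not the mutants. Of the 6 called genes with a window, 3 held ACGTG, a smaller share than the 15 of 19 over the list. Their windows are shown 5' to 3' on the strand of the gene, with ACGTG or its reverse complement in capitals. In Bnip3 the match and its reverse complement overlap.
Bnip3, chr7:138909457-138909756, minus strand: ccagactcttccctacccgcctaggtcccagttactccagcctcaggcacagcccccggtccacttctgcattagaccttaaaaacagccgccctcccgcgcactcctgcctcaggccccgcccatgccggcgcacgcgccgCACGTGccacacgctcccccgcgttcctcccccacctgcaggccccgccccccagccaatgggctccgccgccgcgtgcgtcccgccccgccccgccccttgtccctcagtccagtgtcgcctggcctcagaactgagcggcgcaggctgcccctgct
Egln1, chr8:124949205-124949504, minus strand: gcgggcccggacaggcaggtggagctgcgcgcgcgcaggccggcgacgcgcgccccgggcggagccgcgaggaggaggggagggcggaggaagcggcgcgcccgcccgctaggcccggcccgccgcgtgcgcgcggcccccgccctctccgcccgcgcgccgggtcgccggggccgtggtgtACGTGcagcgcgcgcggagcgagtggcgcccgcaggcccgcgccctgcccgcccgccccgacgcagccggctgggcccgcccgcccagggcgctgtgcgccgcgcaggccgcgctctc
Pgam1, chr19:41911621-41911920, plus strand: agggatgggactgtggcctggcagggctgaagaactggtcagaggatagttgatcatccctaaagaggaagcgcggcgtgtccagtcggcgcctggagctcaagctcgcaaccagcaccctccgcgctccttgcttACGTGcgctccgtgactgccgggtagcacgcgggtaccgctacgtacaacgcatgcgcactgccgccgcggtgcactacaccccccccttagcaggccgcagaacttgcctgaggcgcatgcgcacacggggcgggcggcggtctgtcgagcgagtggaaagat
Pdk1, Pfkp and Tpi1 did not have these letters in the window. Ndrg1 and Slc2a3 are named only.

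Genes of the hedgehog pathway and of the ventral neural tube, which hedgehog signals pattern, also leaned higher in BALB/cCrl mutants. Of 19 measured, 4 were called higher and 0 lower (21.1%), with a median of 0.19 in mutants and -0.02 in wild types. Foxa2, the transcription factor of the floor plate and notochord, read 8.39, 8.66, 8.55 and 8.51 in BALB/cCrl mutants and 8.26, 8.11, 8.04 and 7.85 in FVB/N mutants. The groups did not overlap (0.46 ± 0.10, adjusted p = 0.0032), and the wild type means were 8.68 ± 0.17 in BALB/cCrl and 8.63 ± 0.14 in FVB/N. The ventral progenitor genes Nkx6-1 (0.68) and Nkx2-9 (0.33) and the signal transducer gene Smo (0.19) were also called, with overlap of the mutant groups for Smo.

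Nkx6-1 read 8.13, 7.76, 7.88 and 7.72 against 7.69, 6.29, 7.55 and 7.25, with FVB/N mutant 2 the lowest. Gas1, a co-receptor of hedgehog, was called on a different probe set (0.63) and not on the one with the highest level (0.08). The ligand gene Shh had 0.33 (adjusted p = 0.1142), and the target genes Gli1 0.41 (adjusted p = 0.1137) and Ptch1 0.18 (adjusted p = 0.2182), and none of these passed the test in limma. The count of 4 was 2 without FVB/N mutants 3 and 4, 2 without FVB/N mutant 2 or 4 or BALB/cCrl mutant 1 or 3, 2 without the intensity trend and 1 in the fit of each pair. The call of Foxa2 was lost without FVB/N mutants 3 and 4 (adjusted p = 0.0569).

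Of 44 measured genes known to be needed for cranial closure, 3 were called higher and 4 lower (15.9%), with a median of 0.02 in mutants and -0.03 in wild types. On matched probe sets these were Vangl2, a core gene of planar cell polarity, which was higher, and the polarity receptor gene Fzd3 and the surface ectoderm factor gene Grhl2, which were lower. Vangl2 read 10.79, 10.50, 10.92 and 10.44 in BALB/cCrl mutants and 10.27, 10.18, 10.32 and 10.29 in FVB/N mutants, a difference of 0.39 ± 0.09 without overlap (adjusted p = 0.0042) on 1 of 3 probe sets. Fzd3 was called at -0.29 and -0.31 on 2 of 6, and Grhl2 at -0.29. Zic5, a zinc finger gene of the dorsal neural tube, was called at -0.51 on a probe set other than its brightest. It read 6.21, 6.07, 6.32 and 5.94 against 6.67, 6.36, 6.76 and 6.77, without overlap, and lost this call without FVB/N mutants 3 and 4 (adjusted p = 0.0737). The other 4 of the 7 calls, Casp9, Mthfd1l, Mapk8 and Twist1, were on probe sets that are not matched. In all, 11 genes of the list had a called matched probe set, against 1909 of all 18193 genes. This count grows with the number of probe sets of a gene. Beside Crebbp and those above, Itga6 (0.40), Pax3 (0.36), Enah (0.47) and Sec24b (0.30) were called higher, and Marcks (-0.25) and a second probe set of Mapk8 (-0.24) lower. The mutant groups overlapped for Enah and Sec24b, on the Fzd3 probe set at -0.29 and on the Crebbp probe set at 0.59. Enah was called on 1 of 6 probe sets and Pax3 on 1 of 3.

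In the surface ectoderm list, whose cells flank the neural folds and fuse over them, 3 of 20 were called lower and 1 higher. Beside Grhl2, the lower genes were Tfap2c (-0.47, on 1 of 3 probe sets) and the desmosome gene Perp (-0.44), and the tight junction gene Cldn4 was higher (0.34). Perp read 7.83, 7.15, 7.47 and 7.68 in BALB/cCrl mutants and 8.04, 8.03, 7.87 and 7.94 in FVB/N mutants, without overlap, and the wild type means were higher than either, at 8.11 ± 0.03 in BALB/cCrl and 8.18 ± 0.10 in FVB/N. The list's median was -0.03 in mutants and -0.06 in wild types.

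Among ISWI complex genes, to which Cecr2 belongs, 2 of 13 were called higher, Baz2a (0.20) and Baz1b (0.13), with a median of 0.02. That count was 0 without BALB/cCrl mutant 1 or 3 and without FVB/N mutants 3 and 4, and 1 without FVB/N mutant 2, 3 or 4, FVB/N wild type 2, 3 or 4, or BALB/cCrl wild type 1, 2 or 4. It was also 0 in the fit of each pair, without the intensity trend, with median centring and under the replicate block, and 1 gene was called lower under that block and without BALB/cCrl wild type 2. Bptf, the large subunit of the NURF complex, was called at 0.53 on 1 of 4 probe sets. It read 11.36, 11.26, 11.28 and 11.06 against 10.78, 10.72, 10.89 and 10.44 there, without overlap. Further matched probe sets were called for Baz2b (0.57, on 1 of 5) and Rsf1 (0.24). The call of Baz2b was lost without FVB/N mutants 3 and 4 (limma, adjusted p = 0.143). The ATPase genes Smarca1 (0.11) and Smarca5 (0.01) did not pass the test.

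Markers of primitive erythroid cells were higher in BALB/cCrl mutants at 6 of 14 genes and lower at 0 (42.9%). The median was 0.37 in mutants and 0.17 in wild types, and 7 of the 14 genes were matched, of which Hbb-bh1 (0.30), Hbb-y (0.29) and Gata1 (0.43) were called. The summed level of the 14 genes, on the linear scale, was 70272 to 78944 in BALB/cCrl mutants and 48477 to 66103 in FVB/N mutants, without overlap. In the wild types it was 63910 to 79405 and 50934 to 75524. The called count was 1 without FVB/N mutants 3 and 4, 1 without FVB/N mutant 3 or BALB/cCrl mutant 3, 2 without BALB/cCrl mutant 4, and 3 without BALB/cCrl mutant 2 or the intensity trend. In whole embryos fewer cells of a type and less RNA per cell cannot be told apart, and the part that blood cells have in the other differences was not tested.

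Summed marker levels of other embryonic tissues overlapped between the mutant groups for neural progenitors (11973 to 12743 against 10434 to 13432), somites, heart and endothelium. Sums of the extraembryonic lists overlapped too. That of visceral endoderm and yolk sac varied widely within each group, from 17485 to 54020 in BALB/cCrl mutants and from 10955 to 42235 in FVB/N mutants. Of 19 measured trophoblast and decidua genes, only 9 remained when probe sets with every group mean under 5 (log2) were left out. Among these lists the genes called on a matched brightest probe set were Sox3 for neural progenitors (0.31), Plvap for endothelium (0.33) and the cardiac muscle genes Myh7 (-0.44) and Actc1 (-0.24). Other matched probe sets were called for the endothelial genes Flt1 (0.39) and Fli1 (0.56) and the somite gene Pax3 (0.36). The mutant groups overlapped for Plvap. Without FVB/N mutants 3 and 4 the calls of Plvap, Flt1, Fli1, Myh7 and Actc1 were lost (limma, adjusted p = 0.0866 to 0.226). Mef2c, a transcription factor gene of the cardiac list, was called in both directions, at 0.79 (adjusted p = 3.27e-06) and at -0.26, each without overlap. Read through the brightest probe sets, other lists on matched probe sets gave at most 2 calls in a direction, among them Shmt2 (0.30) and Mtr (0.17) for one-carbon metabolism, Palld (0.44) and Myh9 (0.21) for the actin cytoskeleton, Ngfr (0.30) and Msx2 (-0.27) for neural crest, Hoxa3 (0.29) for Hox genes, and Ddit4 (0.58) and Nr4a1 (0.22) for immediate early and heat shock genes. A further matched probe set of the actin list, for Rhoa, was called higher (0.62). Its mutant values, 3.62 to 4.83, lay within the 3.03 to 4.88 of the Y-linked probe sets. In these lists matched probe sets were also called higher for Abl2 (0.43), Hoxb4 (0.37) and Klf6 (0.49), and lower for Gart (-0.19), Cdh11 (-0.39) and Hsph1 (-0.41). Several of these genes were called on 1 probe set alone: Klf6 on 1 of 5, Palld, Hoxa3, Flt1 and Gart on 1 of 4, and Abl2 on 1 of 3. The call was on 1 of 2 for Mtr, Msx2, Hoxb4, Cdh11 and Hsph1. The mutant groups overlapped for Ngfr, Msx2, Hoxa3 and Ddit4. Without FVB/N mutants 3 and 4 the calls of Mtr, Msx2, Hoxa3, Hoxb4, Ddit4, Gart, Abl2 and Klf6 were lost (limma, adjusted p = 0.0544 to 0.21). For p53 targets Mdm2 (0.25) and Sesn2 (0.34) were called higher and Aen (-0.22) lower, beside Perp. For Hox genes 1 of 24 was called and for planar cell polarity 3 of 24, and Wnt5a, a ligand of that pathway, was called at 0.53 and 0.60 on other matched probe sets. Over the 20 head mesenchyme and placode genes, 2 were called lower on their brightest probe sets, Prrx1 and Twist1, and neither of these probe sets is matched. Another probe set of Prrx1, a homeobox gene of head mesenchyme, is matched and was called at -0.40 without overlap, with a wild type difference of -0.30. It lost this call without FVB/N mutants 3 and 4 (limma, adjusted p = 0.105).

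**Figure D5:**
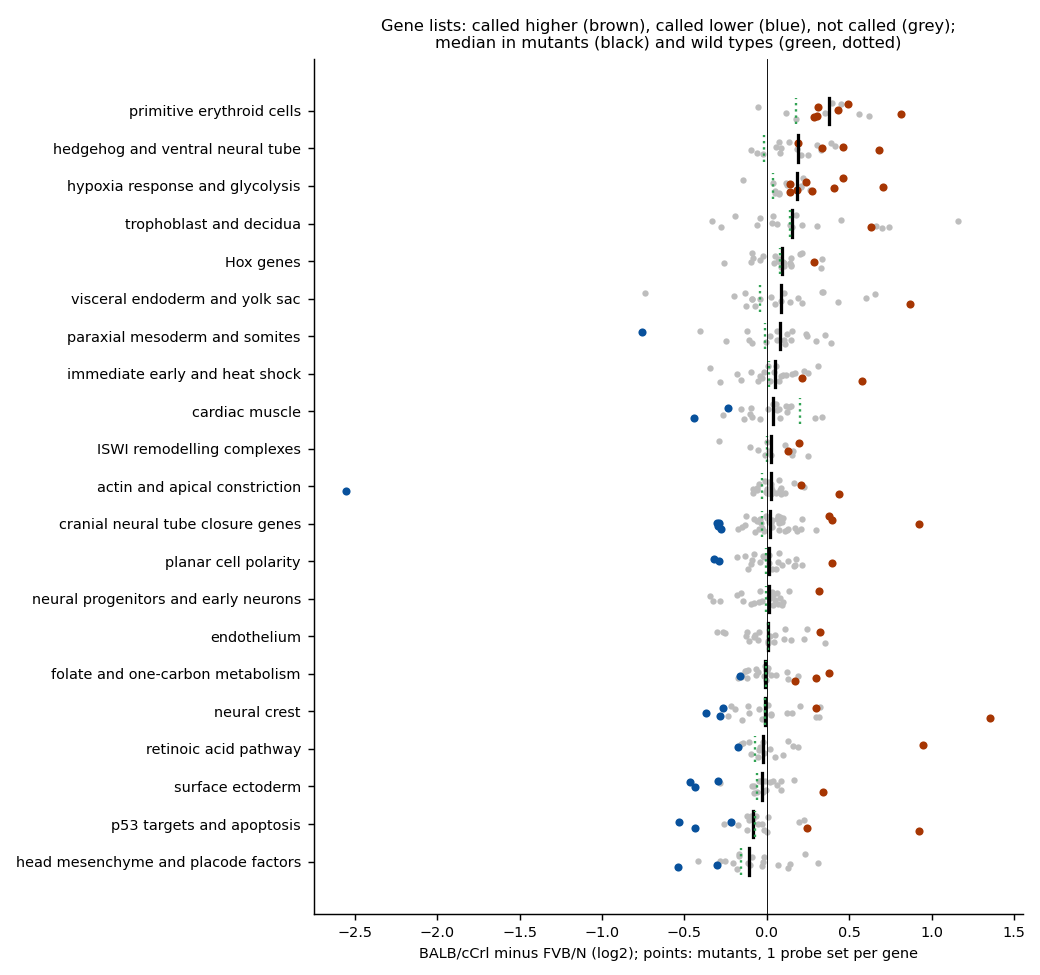
BALB/cCrl minus FVB/N difference (log2) in mutants of each gene of 21 lists, 1 probe set per gene, with brown for called higher, blue for called lower and grey for no call; black bars are the list's median in mutants and green dotted bars that in wild types. The erythroid, hedgehog and hypoxia lists have the highest medians, and in the hedgehog and hypoxia lists the wild type median lies near 0.

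The share of called genes near the trapped gene was not above that elsewhere. Both mutant groups carry the same trapped allele, so this comparison cannot show effects of donor DNA that both lines kept around Cecr2. Such effects were not tested. On chromosome 6, which carries Cecr2, 86 of 949 genes with a matched probe set had one called (9.06%), against 11.2% on the other chromosomes, whose shares ran up to 13.8%. Within 10 Mb of Cecr2 the share was 18 of 224 (8.04%), from 10 to 30 Mb 17 of 172 (9.88%), and beyond that 51 of 552 (9.24%). Chd4 and Tpi1, at 4.3 and 4.0 Mb, and Crbn, at 13.9 Mb, lay in these intervals. When each pair of groups was fitted alone the count on chromosome 6 was 42.

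The members nearest to the limits of the rule give its edges. Just inside the interval limit lay a probe set with no gene symbol (0.76 between mutants), and just outside it Kif23 (0.58). Just inside the limit on the adjusted p lay Gprc5c (-0.36 between mutants, -0.29 between wild types), and just outside it Armcx3 (0.15 and 0.16).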

How the data were processed

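Total RNA of 16 single embryos was hybridised to Affymetrix arrays. The deposited values are log2 expression per probe set, which the authors normalised over all 16 arrays; the submitters' processing notes name RMA and GCRMA without order or version. The authors' deposited fold scores and p-values of the mutant pair were compared with these values. Further gcRMA tables, normalised by the authors in parts, gave the 3' and 5' control probe sets and 1 alternative rule for the wild types. Probe sets were named through the platform annotation and RefSeq: 34945 had 1 symbol, 932 several and 9160 none.

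Group means of all 16 arrays were fitted with limma 3.58.1 in R 4.3.3 (lmFit, eBayes with an intensity trend), with Benjamini-Hochberg adjustment over all 45037 probe sets, two-sided. Called means an adjusted p under 0.05. Differences are BALB/cCrl minus FVB/N. In simulated data with 45037 probe sets, 71% of changes of 0.5 and 99% of changes of 1 (log2) were recovered for the mutant contrast, and 10 of its 180 calls were false. For the interaction 31% and 95% were recovered. The simulated noise was independent between arrays and probe sets, and far fewer probe sets were changed than were called in the data. These shares are therefore not the error rates of the real calls. Nothing in the labels says that the embryos of a group came from separate litters, so p-values measure the spread between these embryos. The number of arrays, 4 in a group, limits the precision.

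The text names Cecr2, 12 genes ranked by highest and 12 by lowest difference among called matched probe sets whose mutant groups do not overlap, up to 3 called genes of each of 21 lists by p, and the probe sets nearest the limits of the rule. Genes outside this, among them those of all-probe-set agreement, the interaction and the further list members, were chosen after their values were seen. The members and lists were chosen with earlier results of these data known.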

Additional observations from a re-analysis of the deposited data

Results flagged for a closer look

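Gaps within a group of 4 were judged by Dixon's ratio at its 95% limit, over 484 groups of the named probe sets, and 28 groups passed. Chance gives about 1 in 20 groups. Levels below are log2, for the array that stood apart and then for the range of the other 3. Arrays that lay above the rest of their group were found for Wnt5a in BALB/cCrl mutant 1 (6.17 against 5.74 to 5.81), Msx2 in BALB/cCrl mutant 2 (9.25 against 9.13 to 9.15), Flt1 in FVB/N wild type 2 (8.02 against 7.96 to 7.97). High values stood apart for Flt1 in FVB/N mutant 1 (7.94 against 7.5 to 7.57), Flt1 in BALB/cCrl mutant 3 (8.25 against 7.96 to 7.98), Hsph1 in FVB/N mutant 2 (11.89 against 11.57 to 11.61). A gap on the high side was also seen for Hsph1 in BALB/cCrl wild type 3 (11.74 against 11.31 to 11.35), Kdm5a in FVB/N mutant 2 (8.31 against 7.97 to 8.01), Chd4 in BALB/cCrl mutant 3 (8.73 against 8.59 to 8.61). The high array was the one given for Sarnp in FVB/N mutant 4 (12.23 against 12.08 to 12.11). Arrays that lay below the rest were found for Pdap1 in FVB/N mutant 4 (9.86 against 10.35 to 10.42), Ece1 in FVB/N mutant 2 (9.02 against 9.18 to 9.19), Nkx2-9 in BALB/cCrl mutant 3 (8.81 against 8.9 to 8.91). Low values stood apart for Tfap2c in BALB/cCrl wild type 2 (6.75 against 7.08 to 7.13), Plvap in FVB/N wild type 1 (9.88 against 10.07 to 10.09), Actc1 in BALB/cCrl wild type 4 (13.2 against 13.35 to 13.38). A gap on the low side was seen for Tfrc in FVB/N mutant 1 (9.07 against 9.21 to 9.23), Pgam1 in FVB/N wild type 1 (13.48 against 13.52 to 13.52), Pfkp in BALB/cCrl wild type 3 (8.48 against 8.64 to 8.66). The low array was the one given for Apex1 in FVB/N mutant 2 (12.71 against 12.86 to 12.89), Crbn in BALB/cCrl mutant 1 (9.61 against 9.75 to 9.76), Igfbp4 in FVB/N wild type 1 (12.76 against 12.99 to 13.0). Single low arrays also occurred for Igfbp4 in BALB/cCrl mutant 2 (12.63 against 12.96 to 13.0), Laptm4b in BALB/cCrl mutant 1 (11.27 against 11.53 to 11.56), Pknox1 in FVB/N mutant 4 (6.97 against 7.24 to 7.27). The same held for Pknox1 in BALB/cCrl mutant 4 (8.3 against 8.71 to 8.76), Sarnp in FVB/N wild type 2 (11.97 against 12.03 to 12.04), Tpi1 in FVB/N wild type 3 (12.93 against 13.04 to 13.05). 

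The strain difference was unlike in mutants and wild types, by the interaction in limma at an adjusted p under 0.05, for 6 matched probe sets. The difference of differences, mutants minus wild types, was 3.38 (log2) for Cdk5rap1, 0.97 for Kdm5a, 0.8 for Rest, 0.7 for Polr1a, 0.55 for Pde5a and 0.49 for Eif3c.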

How the results depend on the processing

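The count of 2644 called matched probe sets was 1269 in the fit of each pair of groups alone, 1715 with the stricter wild type interval, and 1570 to 2824 when 1 array was left out. The interaction count of 6 was 2 without the intensity trend, with quantile normalisation, without FVB/N mutants 3 and 4 and with the stricter interval, 30 with array weights, and 1 to 65 when 1 array was left out. The count of 86 genes on chromosome 6 was 42 in the fit of each pair and 60 to 93 when 1 array was left out. The count over all probe sets, 4861, was 3245 in the fit of each pair and 3514 to 4947 when 1 array was left out. The cause of these shifts was not tested. With the replicate number as a block these 4 counts were 2663, 50, 84 and 4823. Same-numbered mutants had correlations of their deviations between -0.06 and 0.10, within the -0.12 to 0.15 of differently numbered mutants. The wild type arrays were not compared in this way, and the check cannot exclude a factor shared by arrays of one number. A wild type rule from the authors' gcRMA table, chosen after seeing the data, gave 2546 called probe sets, of which 2174 were shared, 4 interactions and 78 genes on chromosome 6. Over the 21 lists, 65 calls became 61 when the probe sets of a gene were averaged. The 121 named probe sets were refitted under 24 alternatives: 0 of 2904 values reversed, 325 lost their call, 41 of these without FVB/N mutants 3 and 4 and 32 in the fit of each pair, and 66 probe sets were called under every alternative run.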
